A study of Homo sapiens with 12 samples.

Results

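The set described here consists of long noncoding RNA (lncRNA) genes whose ends carry acetylated lysine 27 of histone H3 (H3K27ac) away from protein-coding genes. A gene entered the set when RefSeq types it as lncRNA on chromosomes 1 to 22 or X, an H3K27ac summit of either choline dose lay within 1 kb of either gene end, and both ends lay over 2.5 kb from every protein-coding gene end. It holds 1049 of 18177 lncRNA genes, and is referred to below as the acetylated lncRNA genes. Of 13826 lncRNA genes that met the distance rule, 12777 had no such summit. The genes were chosen by their H3K27ac summits at the gene ends at either dose, so their acetylation is given as a description and is not tested.

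The cells were Huh7, an established human hepatocellular carcinoma line, labelled wild type in every group. They were held for 48 h in a custom choline-free medium with B-27 supplement in place of serum, and received either 0 µM or 15 µM choline. Chromatin immunoprecipitation with sequencing (ChIP-seq) gave 1 library for H3K27ac and 1 for monomethylated lysine 4 of histone H3 (H3K4me1) at each dose, and all 4 summit lists were used. A summit is the single base at which a called peak is highest. With 1 library for each mark and dose, every difference between doses is a difference between 2 libraries with no replicate check, and no p-value is given.

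A lncRNA is a transcript, usually capped and spliced, that is not translated into a conserved protein. Some act in chromatin or in nuclear bodies, some are hosts from which microRNAs or small nucleolar RNAs are cut, and many arise at enhancers. H3K27ac is found at active promoters and active enhancers. H3K4me1 marks enhancers and the flanks of promoters, and is usually low at the centre of a promoter that carries trimethylation of the same lysine. CpG-rich promoters are typical of genes used in most cells, whereas tissue-restricted promoters are more often CpG-poor.

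The promoters of 5 members show the range of sequence found at these starts. RefSeq's promoter table (GRCh38.p14, the same coordinates as hg38) covers 250 bases before to 50 after a gene's start and had an entry for 666 of the 1049 genes. Of these, 634 had the start at a gene end, and 513 had H3K27ac within 1 kb of it. MALAT1 (chr11:65497488-65497787, + strand) and DANCR (chr4:52712144-52712443, + strand) are shown as CpG-rich starts, the first acetylated at both doses and the second at 0 µM only. LURAP1L-AS1 (chr9:12814340-12814639, - strand) had the best-ranked H3K27ac of the members acetylated at both doses, LINC02428 (chr4:103424792-103425091, + strand) is a liver lncRNA, and ACSS3-AS1 (chr12:81125809-81126108, - strand) was acetylated at its start at 15 µM only. Capitals mark matches, on either strand, to the 9 motifs searched.
MALAT1: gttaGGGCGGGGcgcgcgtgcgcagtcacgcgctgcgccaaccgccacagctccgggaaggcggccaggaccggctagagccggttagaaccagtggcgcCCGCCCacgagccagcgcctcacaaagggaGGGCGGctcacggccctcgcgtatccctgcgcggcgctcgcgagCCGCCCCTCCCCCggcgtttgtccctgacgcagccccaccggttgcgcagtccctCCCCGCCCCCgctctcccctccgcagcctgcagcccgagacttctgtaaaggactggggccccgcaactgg
DANCR: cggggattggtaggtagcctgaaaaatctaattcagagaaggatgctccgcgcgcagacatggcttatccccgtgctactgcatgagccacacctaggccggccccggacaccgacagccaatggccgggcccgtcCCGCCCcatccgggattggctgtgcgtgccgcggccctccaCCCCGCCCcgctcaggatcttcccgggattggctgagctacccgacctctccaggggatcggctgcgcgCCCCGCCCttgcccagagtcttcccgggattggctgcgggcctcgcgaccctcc
LURAP1L-AS1: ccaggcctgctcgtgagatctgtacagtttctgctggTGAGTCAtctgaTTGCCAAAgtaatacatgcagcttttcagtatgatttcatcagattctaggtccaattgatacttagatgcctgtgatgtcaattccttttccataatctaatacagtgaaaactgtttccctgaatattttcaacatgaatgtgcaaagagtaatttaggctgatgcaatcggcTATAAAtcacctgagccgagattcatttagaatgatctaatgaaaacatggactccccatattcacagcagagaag
LINC02428: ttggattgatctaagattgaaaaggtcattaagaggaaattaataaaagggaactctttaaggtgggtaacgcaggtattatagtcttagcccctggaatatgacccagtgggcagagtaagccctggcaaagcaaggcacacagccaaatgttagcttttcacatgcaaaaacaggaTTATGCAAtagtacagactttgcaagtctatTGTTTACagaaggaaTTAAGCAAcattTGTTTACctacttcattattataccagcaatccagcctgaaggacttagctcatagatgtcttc
ACSS3-AS1: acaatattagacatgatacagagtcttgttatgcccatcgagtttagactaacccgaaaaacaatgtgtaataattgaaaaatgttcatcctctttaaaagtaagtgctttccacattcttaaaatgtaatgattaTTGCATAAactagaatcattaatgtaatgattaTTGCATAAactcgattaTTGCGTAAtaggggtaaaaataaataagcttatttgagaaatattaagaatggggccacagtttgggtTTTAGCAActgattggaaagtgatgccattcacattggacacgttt

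These 300-base windows differed widely in base composition. That of MALAT1 held 37 CG dinucleotides at 73.7% GC and that of DANCR 27 at 67.7% GC. The LURAP1L-AS1 window held 3 at 39% GC and the LINC02428 window 1, also at 39% GC. MALAT1 had 5 matches to the GC box GGGCGG and 5 to the KLF/SP-type motif CCNCNCCC, which can overlap each other. LINC02428 had 2 matches to the FOX-type motif TGTTTAC and 2 to the C/EBP-type motif TTGCNNAA, and ACSS3-AS1 had 4 of the latter.

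The members were mostly genes without a functional name. Provisional LOC symbols made up 638, LINC symbols 176, antisense names 142, other names 80, intronic or overlapping transcripts 7 and divergent transcripts 6. Their median length was 10119 bp, against 9652 bp for the distant lncRNA genes without H3K27ac. The nearest protein-coding end lay at a median of 31663 bp, against 48836 bp. Both ends lay outside protein-coding genes in 633, both inside in 368, and 1 end inside in 48. Which exon, intron or UTR lies there was not analysed here.

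Members were joined into a locus when they shared an H3K27ac summit within 1 kb of an end. This gave 993 separate loci, of which 939 held a single member and 54 held the other 110. The locus of ANXA2R-OT1, LOC100132356 and LOC100506639 on chromosome 5 and that of LINC02487, LINC02538 and LOC124901465 on chromosome 6 held 3 members each. At the edge of the rule, LOC124900390 had its nearest summit at 1000 bp and was kept, and LOC100506489 had it at 1002 bp and was not. ZNF516-AS1 lay 2501 bp from a protein-coding end and was kept, and LOC112543491 lay 2483 bp from one and was not.

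A share of 7.59% of distant lncRNA genes was acetylated at an end (95% exact binomial interval 7.15 to 8.04). Among lncRNA genes within 2.5 kb of a protein-coding end it was 31.7% (30.3 to 33.1), and among protein-coding genes 30.9% (30.3 to 31.6). All intervals here are exact Clopper-Pearson intervals that cover counting error only, and ends that share summits are not independent.

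The marks of liver identity were present in these libraries. Of 15 hepatocyte genes such as ALB, APOA1 and HNF4A, 11 had an H3K27ac end at 0 µM and 14 at 15 µM. Of 6 blood genes 1 had one at 0 µM and 2 at 15 µM (CD3E and LYZ over both doses), of 6 fibroblast, stellate and endothelial genes 1 at each dose (PECAM1), and of 6 neuron and muscle genes 1 at 0 µM (SNAP25) and 0 at 15 µM. The whole H3K27ac lists held 37946 summits at 0 µM and 29305 at 15 µM, a ratio of 0.772, and the H3K4me1 lists 343156 and 349202. Read depth is unknown, and its part in the list lengths was not tested.

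More of the acetylated lncRNA genes had an H3K27ac end at 0 µM than at 15 µM. At 0 µM 890 members carried the mark at an end, at 15 µM 636 did, and 477 had it at both. The number was lower at 15 µM on 22 of 23 chromosomes and equal on 1. A member was called lost when 15 µM had no summit within 2 kb of either end, and gained in the opposite case. The 323 lost members were 36.3% of those acetylated at 0 µM (33.1 to 39.6), and the 85 gained were 13.4% of those acetylated at 15 µM (10.8 to 16.3). Another 164 had a summit within 1 kb at 1 dose and between 1 and 2 kb at the other.

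The same calls over all lncRNA and protein-coding genes gave 42.7% lost and 10.6% gained. They gave 43.9% and 10.5% for protein-coding genes, and 39.3% and 10.7% for all lncRNA genes. Since H3K27ac chose the genes, nothing is read from these shares. Within the set, 38.5% of LINC genes (30.6 to 46.9), 38.3% of LOC genes (34.2 to 42.6) and 30.6% of antisense genes (22.5 to 39.6) were lost, with overlapping intervals. A summit list cannot tell fewer acetylated cells from less acetylation in each cell.

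**Figure D1:**
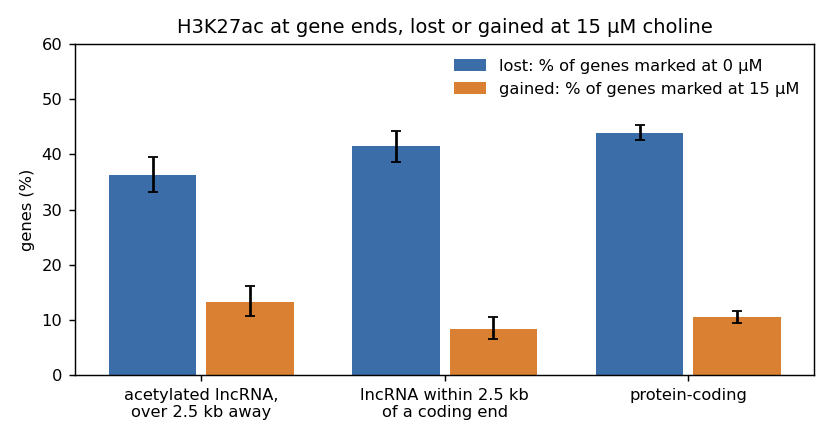
Share of genes with an H3K27ac end at 0 µM that lost it at 15 µM, and of those with one at 15 µM that had gained it (y axis, percent), for acetylated lncRNA genes, lncRNA genes close to a protein-coding end, and protein-coding genes. Bars are shares from 1 library per dose and lines are 95% exact binomial intervals. For the acetylated lncRNA genes the bars stand at 36.3% lost and 13.4% gained.

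The acetylated end was often not the annotated start. Of 553 members over 2 kb long with a known start, 354 were acetylated at the start only, 115 at the other end only and 84 at both. The other end alone carried the mark in 20.8% (17.5 to 24.4), against 5.63% of 4264 protein-coding genes (4.96 to 6.36). The shares lost were close, at 42.7% (37.1 to 48.4) of those acetylated at the start only and 43.0% (32.4 to 54.2) of those acetylated at the other end only.

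The starts of acetylated lncRNA genes were CpG-poor more often than those of coding genes. A promoter was called CpG-rich when its observed over expected CpG ratio was above 0.6. By this rule 32.4% of 513 acetylated lncRNA starts were CpG-rich (28.3 to 36.6), against 89.4% of 4146 acetylated protein-coding starts (88.4 to 90.3) and 10.5% of 7209 starts of other distant lncRNA genes (9.79 to 11.2). Among members the share was 43.7% for starts of lost genes (35.8 to 51.8) and 22.9% for starts of gained genes (10.4 to 40.1). For acetylated starts of genes acetylated at both doses it was 28.9% (23.6 to 34.8). These classes were called per gene over either end, so a start in the last class can have a summit at a single dose. The start of ACSS3-AS1 passes the rule on a ratio of 0.69 although only 31.3% of its bases are G or C. After these values had been seen, a stricter rule that also asks for over 50% GC was therefore tried, and its values stand beside those it moves.

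**Figure D2:**
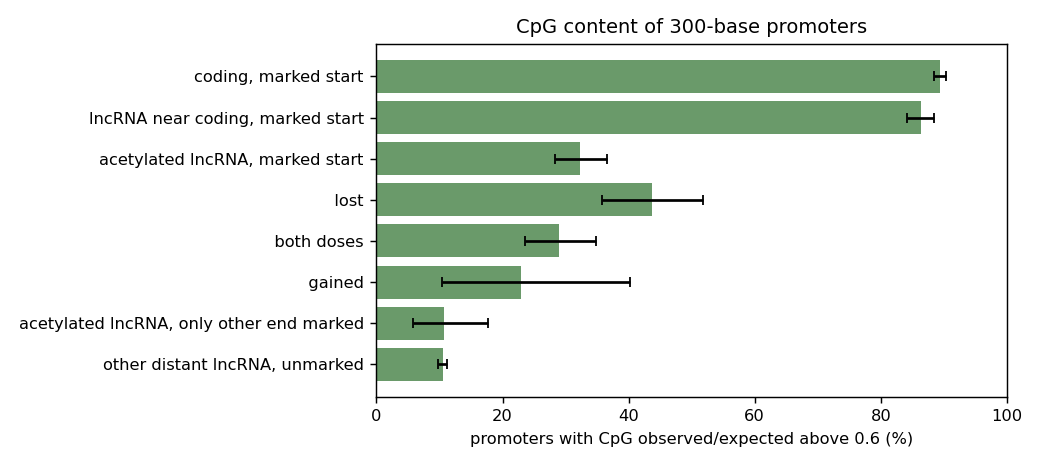
Share of 300-base promoters with an observed over expected CpG ratio above 0.6 (x axis, percent) by gene group, with 95% exact binomial intervals. Acetylated lncRNA starts stand at 32.4%, between acetylated coding starts at 89.4% and unmarked distant lncRNA starts at 10.5%.

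Loss of H3K27ac was then read within each promoter class, as a description. Among CpG-rich starts 44.5% of members were lost (36.5 to 52.7) and 44.9% of coding genes (43.2 to 46.6). Among CpG-poor starts the shares were 29.7% (24.6 to 35.2) and 34.9% (30.2 to 39.8). The intervals of members and coding genes overlapped within both classes, and did so as well under the stricter rule, at 47.9% and 45.2% for CpG-rich and 28.8% and 36.0% for CpG-poor starts.

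Motif shares of the acetylated lncRNA promoters are given beside those of acetylated coding promoters, of the 7209 promoters of other distant lncRNA genes and of all 24143 promoters of the table, in that order. The KLF/SP-type motif CCNCNCCC was in 43.3%, 72.6%, 29.1% and 54.4%, the GC box in 30.0%, 70.6%, 13.8% and 43.8%, and the ETS-type CCGGAAGT in 2.73%, 11.2%, 0.846% and 4.50%. For these GC-rich motifs the members lay between coding and other distant lncRNA promoters. The AP-1-type TGANTCA was in 16.0% (12.9 to 19.5), 3.88%, 11.9% (11.2 to 12.7) and 7.86%, the highest share in the members. The FOX-type TGTTTAC was in 7.02% (4.96 to 9.58), 2.53%, 5.05% (4.56 to 5.58) and 3.41%, and the intervals of members and other distant lncRNA promoters overlapped. TATAAA was in 16.2% (13.1 to 19.7), 6.56%, 18.6% (17.7 to 19.55) and 12.3%. The C/EBP-type TTGCNNAA was in 13.5% (10.6 to 16.7), 7.82%, 15.4% (14.6 to 16.2) and 10.7%. For both motifs the members lay above coding promoters, and the intervals of members and other distant lncRNA promoters overlapped. The HNF4-type CAAAGTCCA was in 0.780%, 0.265%, 0.458% and 0.369%, and the HNF1-type GTTAATNAT in 1.17%, 0.531%, 1.32% and 0.750%. These are letter matches on both strands and not binding sites.

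H3K4me1 took no part in choosing the genes. It lay within 1 kb of 64.3% of the 1247 acetylated lncRNA ends at 0 µM (61.6 to 67.0) and of 58.1% at 15 µM (55.3 to 60.8). At 6704 acetylated protein-coding ends the shares were 50.1% (48.9 to 51.3) and 47.2% (46.0 to 48.4). The difference was 14.2 percentage points at 0 µM (11.2 to 17.2) and 10.9 at 15 µM (7.82 to 13.9). At the 25554 ends of distant lncRNA genes without H3K27ac the shares were 19.6% and 20.5%. The 851 unacetylated ends of the members lay between, at 43.4% and 45.4%. Acetylated starts and other ends were alike, at 64.1% and 64.3% at 0 µM.

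This difference depends on the distance allowed. With 2 kb in place of 1 kb for both marks, 1336 genes with 1666 acetylated ends met the rule. The difference then became -0.301 percentage points at 0 µM (-2.07 to 1.35), an interval that covers both signs. At 15 µM it was -3.65 points (-5.55 to -1.86), with the members' ends below the coding ends. The position of H3K4me1 around each H3K27ac summit shows where the summits lie. At 0 µM, coding ends held 0.206 H3K4me1 summits per kb in the first 250 bp and 0.511 at 1500 to 1750 bp. Acetylated lncRNA ends, pooled over promoter classes, held 0.399 and 0.388, so the pooled values at 0 µM did not show the central dip of coding ends. The CpG-rich lncRNA starts among them did show a dip, as given below. At 15 µM the values were 0.216 and 0.499 for coding ends, and 0.281 and 0.358 for lncRNA ends. At that dose the pooled lncRNA ends were thus also lower beside the summit. The median distance to the nearest H3K4me1 summit was 687 bp for lncRNA ends and 916 bp for coding ends at 0 µM, and 873 bp and 938 bp at 15 µM.

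**Figure D3:**
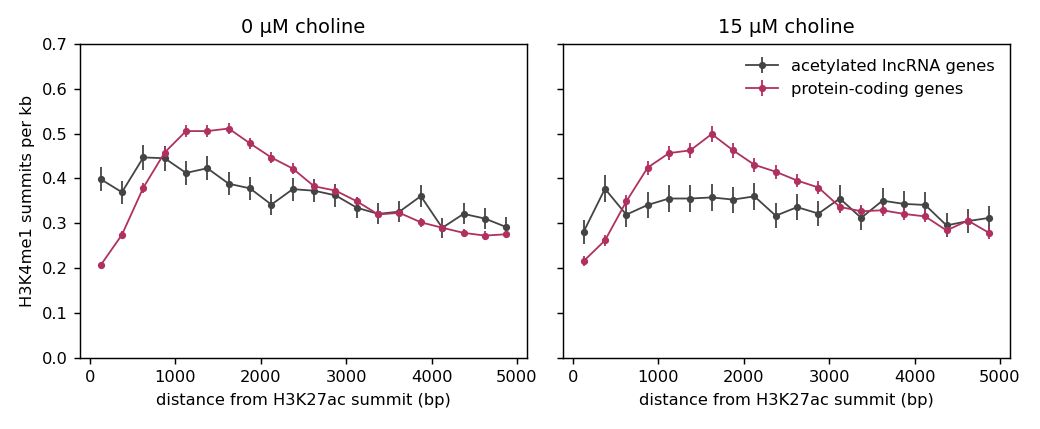
H3K4me1 summits per kb (y axis) by distance from an H3K27ac summit at a gene end (x axis, bp, bins of 250 bp, both sides together), for acetylated lncRNA and protein-coding genes at each dose. Points are values of 1 library and lines show the square root of the count as counting error. Coding genes rise from 0.206 beside the summit to 0.511 at 1500 to 1750 bp at 0 µM, and lncRNA genes stay between these values.

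Promoter class went with this pattern at 0 µM, and less so at 15 µM. In the first 250 bp at 0 µM, CpG-rich starts held 0.204 H3K4me1 summits per kb in lncRNA genes and 0.162 in coding genes, and CpG-poor starts 0.532 and 0.322. At 15 µM these values were 0.204 and 0.150 for CpG-rich starts, and 0.274 and 0.276 for CpG-poor starts. CpG-rich lncRNA starts did show the central dip, with 0.495 at 1500 to 1750 bp at 0 µM, where CpG-poor ones held 0.376. At CpG-rich starts H3K4me1 was within 1 kb of 54.2% of lncRNA starts (46.3 to 62.0) and 45.0% of coding starts (43.4 to 46.7) at 0 µM, and of 54.8% and 42.4% at 15 µM. At CpG-poor starts it was within 1 kb of 68.9% (63.7 to 73.7) and 61.6% (56.9 to 66.2) at 0 µM, intervals that overlap, and of 62.5% (57.2 to 67.7) and 63.0% (58.3 to 67.5) at 15 µM. Under the stricter rule, added after these values were seen, the CpG-poor shares at 0 µM were 68.1% (63.1 to 72.9) and 57.6% (53.5 to 61.6), which no longer overlap, and those at 15 µM 62.3% (57.1 to 67.3) and 58.1% (54.0 to 62.1). Whether the intervals of lncRNA and coding CpG-poor starts overlap at 0 µM therefore depends on how the class is drawn. At 15 µM they overlapped under both rules. Overlap of intervals is not a test of the difference, which was not tested.

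Ends that lost H3K27ac had H3K4me1 at similar frequency at both doses. Of 346 acetylated ends of lost members, 238 had an H3K4me1 summit within 1 kb at 0 µM, or 68.8% (63.6 to 73.6), and 236 at 15 µM, or 68.2% (63.0 to 73.1). It was present at both doses at 179, at 0 µM alone at 59, at 15 µM alone at 57 and at neither at 51. Within 10 kb of these ends H3K27ac summits numbered 714 at 0 µM and 159 at 15 µM, and H3K4me1 summits 2164 and 2120. At the 626 ends of members acetylated at both doses the H3K4me1 share was 61.7% (57.7 to 65.5) at 0 µM and 53.7% (49.7 to 57.6) at 15 µM, and at the 91 ends of gained members 72.5% (62.2 to 81.4) and 65.9% (55.3 to 75.6).

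H3K4me1 was called lost or gained at the distances used for H3K27ac, but for each end alone. H3K27ac was called per gene over both ends, so the shares of the marks are not like values. Of 802 acetylated lncRNA ends 77 lost H3K4me1, or 9.60% (7.65 to 11.9), and 48 of 724 gained it, or 6.63% (4.93 to 8.69). Acetylated coding ends gave 7.42% lost and 6.92% gained. All ends of lncRNA and protein-coding genes gave 19.4% and 21.5%. These shares depend on the settings. With 2 kb ends and absence asked within 4 kb, the members' share lost was 1.90%, that of acetylated coding ends 1.26% and that of all ends 12.1%. With H3K4me1 scores of at least 5 they were 17.7%, 25.9% and 31.0%. The members' shares lost lay below those of all ends under both settings, and on either side of those of acetylated coding ends.

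**Figure D4:**
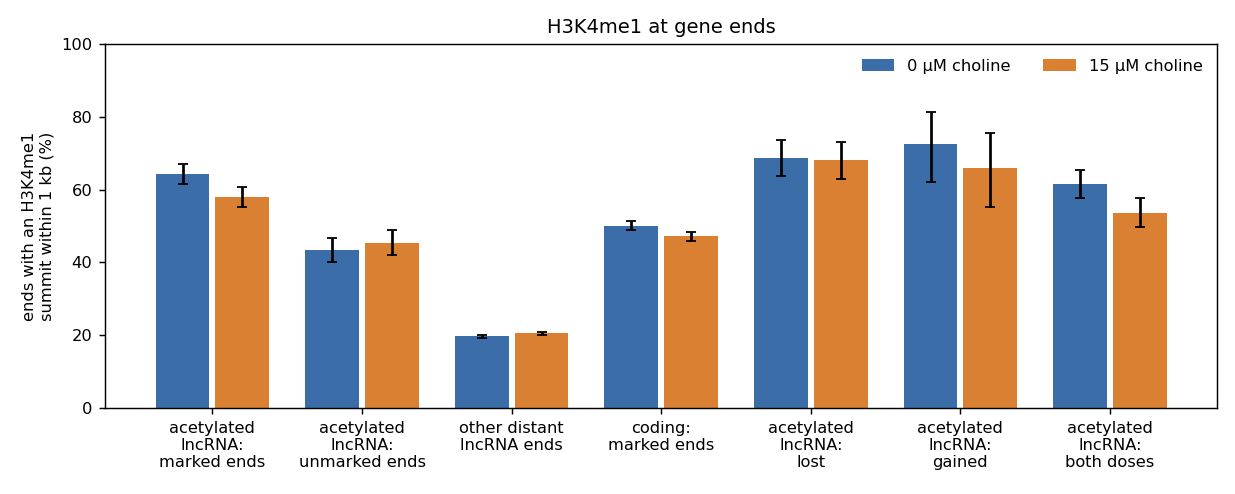
Share of gene ends with an H3K4me1 summit within 1 kb (y axis, percent) at 0 µM and 15 µM choline, by group of ends. Bars are 1 library each and lines are 95% exact binomial intervals. Ends of lncRNA genes that lost H3K27ac stand at 68.8% and 68.2%.

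Of 20 listed liver lncRNA genes, 5 members are described here. Within 1 kb of its ends HULC had 1 H3K27ac summit at 0 µM and 3 at 15 µM. PROX1-AS1 had 1 and 2, MIR122HG 1 and 3, and LINC02428 1 and 2. LINC01554 went the other way, with 2 and 0, and its nearest at 15 µM lay at 1042 bp. Counts within 10 kb include these end summits, by which the genes were chosen. All 5 had more H3K27ac summits within 10 kb of their ends at 15 µM, where the sum was 35, than at 0 µM, where it was 24. Over all 1049 members 266 had more at 15 µM, or 25.4%, 579 had fewer and 204 were equal. None of the 5 was called lost or gained. H3K4me1 summits were more numerous at 15 µM around 3 of them and less numerous around 2.

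HULC, a lncRNA first described as highly expressed in liver cancer, had, within 10 kb, 4 H3K27ac summits without choline and 6 with it, and 7 and 8 of H3K4me1. PROX1-AS1, antisense to the gene of the hepatic factor PROX1, had 7 and 10 of H3K27ac, and 11 and 6 of H3K4me1. MIR122HG, the host of the liver microRNA miR-122, had 6 and 9, and 9 and 5. In these 3 genes H3K27ac counts were higher at 15 µM, while H3K4me1 counts were higher in 1 and lower in 2. LINC01554 had 5 and 7, and 8 and 9. LINC02428, whose CpG-poor promoter is printed above, had 2 and 3, and 12 and 14. Its end summit lay at the 3.33 percentile of scores of the 0 µM list and at the 68.7 percentile of the 15 µM list.

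Of 35 lncRNA genes known from cancer, 10 were members, with 9 acetylated at 0 µM and 7 at 15 µM. JPX, an activator of X inactivation, DANCR, which holds back differentiation, and DLEU2, the host of miR-15a and miR-16-1, were lost, 3 of 9 against 36.3% of all members, and HEIH was gained. Within 10 kb of their ends, 7 of the 10 had fewer H3K27ac summits at 15 µM, 2 had more and 1 was equal, where 579 of all 1049 members had fewer.

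DANCR had, within 10 kb, 3 H3K27ac summits without choline and 0 with it, where the nearest lay 93337 bp away, and 8 of H3K4me1 at each dose. JPX had 1 and 0 of H3K27ac, and 6 of H3K4me1 at each dose. DLEU2, named after its values were seen, had 5 and 1 of H3K27ac, and 13 and 6 of H3K4me1. DANCR and JPX thus had equal H3K4me1 counts at the doses and DLEU2 did not. HEIH, also named after its values were seen, had 0 and 1 of H3K27ac, and 5 and 6 of H3K4me1. MALAT1, an abundant nuclear-speckle RNA, had 9 and 8 of H3K27ac, and 7 and 9 of H3K4me1. NEAT1, the scaffold of paraspeckles, had 5 and 3, and 20 and 23.

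CYTOR had 4 and 3 H3K27ac summits within 10 kb, and 15 H3K4me1 summits at each dose. MIR4435-2HG had 3 and 2, and 13 at each dose. The printed-length promoters of these 2 genes share an unbroken run of 241 bases, so reads at their starts can be hard to assign to 1 copy, and their values are uncertain.

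Of 87 microRNA host genes 14 were members, of which 14 were acetylated at 0 µM and 8 at 15 µM, with 4 lost and 0 gained, where 36.3% of all members acetylated at 0 µM were lost. By position, 20 members held 32 microRNA hairpins, and of the 19 acetylated at 0 µM 5 were lost, with 0 gained. Where the strand of a member is unknown, hairpins of either strand were counted. Mature microRNAs of 5 members are shown, from RefSeq on GRCh38.p14, with the seed (bases 2 to 8) in capitals. All but miR-122-5p share their seed with another sequence shown. Other members, such as MIR17HG, also held microRNAs with shared seeds and are not shown. The hosts of the first 4 sequences had an H3K27ac end at both doses, and those of the remaining 6 lost it.
hsa-miR-122-5p: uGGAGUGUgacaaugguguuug
hsa-let-7a-5p: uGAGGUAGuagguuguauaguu
hsa-let-7f-5p: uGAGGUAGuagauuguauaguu
hsa-let-7d-5p: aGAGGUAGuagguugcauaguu
hsa-miR-181a-5p: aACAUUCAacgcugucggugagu
hsa-miR-181b-5p: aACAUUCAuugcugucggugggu
hsa-miR-15a-5p: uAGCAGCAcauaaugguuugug
hsa-miR-16-5p: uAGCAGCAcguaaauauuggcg
hsa-miR-221-3p: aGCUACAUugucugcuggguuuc
hsa-miR-222-3p: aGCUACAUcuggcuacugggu

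MIR122HG, on chromosome 18 from 58446263 to 58451281, had 1 H3K27ac summit beside its ends at 0 µM and 3 at 15 µM. MIRLET7A1HG, the host of the 3 let-7 sequences with the shared seed GAGGUAG, had 1 at each dose, and 13 and 9 H3K4me1 summits within 10 kb. MIR181A1HG, whose microRNAs share ACAUUCA, had 2 and 0 at its ends, and 5 and 3 within 10 kb. These 3 hosts thus differed in direction. DLEU2, whose microRNAs share AGCAGCA, had 1 and 0 at its ends. MIR222HG, the host of the GCUACAU pair on the X chromosome, had 1 and 0, and 6 and 13 H3K4me1 summits within 10 kb. MIR222HG was named after its values were seen. The microRNA miR-181a-5p is also cut from MIR181A2HG, which had 1 H3K27ac summit within 1 kb at 0 µM, 0 at 15 µM, and was not called lost because 1 lay within 2 kb.

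Of 33 small nucleolar RNA host genes 24 lay close to a protein-coding end and 5 were members: SNHG33, DANCR, SNHG32, SNHG5 and SNHG15. All 5 were acetylated at 0 µM and 2 at 15 µM. SNHG33 and DANCR were lost, where 36.3% of all members acetylated at 0 µM were lost. H3K27ac summits of the 5 genes in the 10 kb window summed to 12 at 0 µM and 5 at 15 µM, with fewer at 15 µM around 4 and as many around 1. Of all 1049 members, 579 had fewer and 204 were equal. SNHG32 had 3 and 2, SNHG5 4 and 2, SNHG33 1 and 0, and SNHG15 1 at each dose. H3K4me1 sums were 42 and 41. Of 20 lncRNA genes of other cell types 1 was a member, RMST, known from neural differentiation, with 7 and 4 H3K27ac summits within 10 kb and 11 and 9 of H3K4me1.

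The genes with the best-ranked H3K27ac at both doses were LURAP1L-AS1, LOC124902366, PDE4D-AS1, EGFR-AS1, LNCATV and LOC124902208. LURAP1L-AS1 had 1 end summit at each dose, at the 99.9 and 99.7 percentile of scores within their lists, and no H3K4me1 within 1 kb at either dose, with the nearest at 2696 and 4448 bp. EGFR-AS1, inside the gene of the epidermal growth factor receptor, had 1 and 4 end summits, and 9 and 15 within 10 kb. PDE4D-AS1 had 2 end summits at each dose, 14 and 15 within 10 kb, and no H3K4me1 within 1 kb. In all, 89 of the 477 members acetylated at both doses had no H3K4me1 within 1 kb of the acetylated end at either dose. LNCATV and LOC124902651 were others.

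The lost members with the highest scores at 0 µM were LOC124903318, LOC124904251, LOC124906289, LINC02243, LOC105371120 and DST-AS1. DST-AS1, inside the gene of the cytoskeletal linker dystonin, had, within 10 kb of its ends, 10 H3K27ac summits without choline and 0 with it, and 18 and 14 of H3K4me1. LINC02243 had 3 and 0, and 13 and 14. LOC124903318 had 2 and 0, and 6 and 10. All 3 had H3K4me1 within 10 kb at both doses.

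The gained members with the highest scores at 15 µM were LOC105370991, LOC124901592, ACSS3-AS1, LOC105376364, LINC02058 and LOC101928219. LOC124901592 had its nearest H3K27ac summit at 0 µM 61693 bp away, and 11 and 7 H3K4me1 summits within 10 kb. LOC105376364 lay 21509 bp from KLF6, a zinc-finger factor gene, and had 1 and 3 H3K27ac summits within 10 kb. ACSS3-AS1 had 6 at each dose, a count that at 15 µM includes the gained summit at its start, so the total did not rise. Counted within 10 kb of the acetylated ends alone, the members with most H3K4me1 over both doses, with genes within 200 kb of one already taken passed over, were LINC03146, with 18 and 22 summits, LOC107985365, with 23 and 17, LOC105369686, with 18 at each dose, and EPCAM-DT, with 13 and 20. All 4 were acetylated at both ends, which widens the window counted. LINC03146 was lost for H3K27ac.

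**Figure D5:**
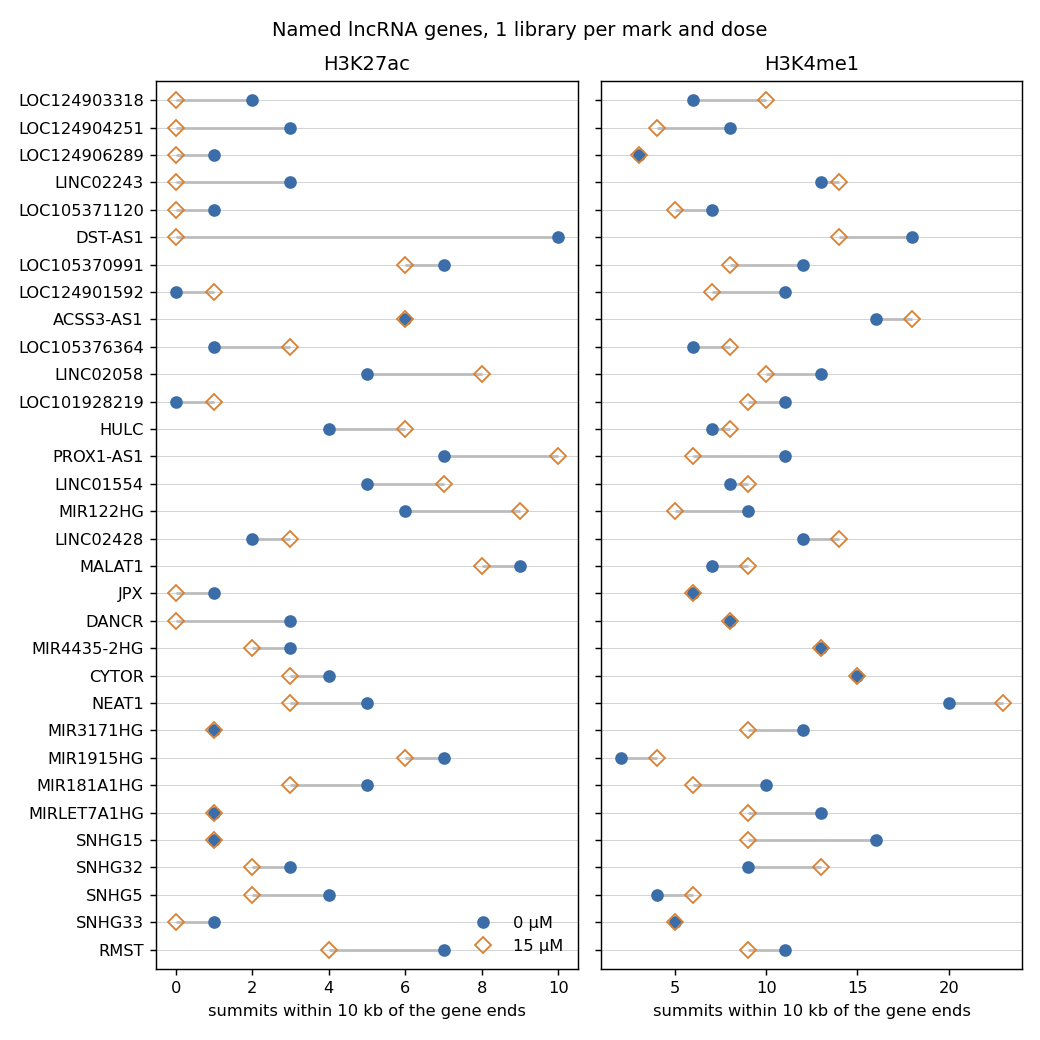
H3K27ac and H3K4me1 summits within 10 kb of the gene ends (x axes, counts of 1 library each) for named lncRNA genes at 0 µM (filled circles) and 15 µM choline (open diamonds). The 5 liver genes from HULC to LINC02428 have more H3K27ac summits at 15 µM, and DST-AS1 goes from 10 to 0.

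The state of the nearest protein-coding gene was compared between classes of members. Of all 19974 protein-coding genes, 2482 were lost, 2696 were acetylated at both doses and 340 were gained. Whether the states of a member and its nearest coding gene are related was not tested. Of 323 lost members 12.4% had a nearest coding gene that was also lost, 18.9% one acetylated at both doses and 61.3% one with no H3K27ac end. Of 477 members acetylated at both doses the shares were 12.6%, 25.4% and 50.1%. Of the 85 gained members 21.2% had a lost nearest coding gene, 23.5% one acetylated at both doses and 43.5% one with no H3K27ac end. The nearest coding gene was gained for 4.71% of gained members (1.30 to 11.6), 3.98% of those acetylated at both doses (2.42 to 6.15) and 2.17% of lost ones (0.876 to 4.41), with overlapping intervals.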

How the data were processed

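Huh7 cells were profiled by ChIP-seq for H3K27ac and H3K4me1 at 0 and 15 µM choline, with 1 library each. The other 8 of 12 samples were not analysed here. The authors deposited 1 summit list per library, whose score was taken to be −log10 of the caller's p or q. The sources used here do not give which, nor the settings of the caller. Per the submitters' processing notes the tools were MACS2, Bowtie, deepTools and Picard (no versions), on hg38. Scores were used only to rank or filter summits within a list. Both H3K27ac lists began at a score of 5.01, and the H3K4me1 lists at 1.31 and 1.30. Read depth is unknown.

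Summits on chromosomes 1 to 22 and X were matched to gene ends of a RefSeq table (GRCh38.p14) with Python 3.11.15, numpy 2.4.6, pandas 2.3.3 and scipy 1.17.1, at 1 kb for presence and 2 kb for absence. Shares carry exact 95% Clopper-Pearson intervals. The calls were tested on simulated data: 100 of 100 planted losses and 100 of 100 planted gains were found among 13826 genes, which met the rules by construction.

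The members and gene lists were chosen with earlier results of these data known. Named genes were the 6 best-ranked at both doses, the 6 highest-scoring lost and the 6 highest-scoring gained members, 4 with most H3K4me1 summits within 10 kb of their acetylated ends and 4 acetylated at both doses without H3K4me1, each at least 200 kb from others of its kind, and, with no spacing, the members of each functional gene list, up to 6 by score percentile. Others are said to have been chosen after their values were seen. A member of the liver list is not reported here. The sequence features were planned, but no limit for calling a promoter CpG-rich was. A CpG ratio above 0.6 was used first, and after its results were seen a rule adding over 50% GC was computed, because an AT-rich promoter had passed. The first is kept throughout and both are given where they differ. Alternatives covered 11 settings of distance, score, list length and gene choice.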

Additional observations from a re-analysis of the deposited data

How the results depend on the processing

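Of 99 recomputed values, from 9 results under 11 alternatives, 64 stayed within the counting interval of the reported value (for the number of members, within 1.5 times), 33 moved and 2 reversed in sign. The cause was not tested. With 2 kb ends, absence was asked within 4 kb, so both distances changed in that setting. A changed end distance also changed which genes and ends were counted. The share lost was 31.5% with 2 kb ends, 29.7% and 25.8% when absence was asked within 5 kb and 10 kb, 41.4% with H3K27ac scores of at least 10, and 30.7% with lists of equal length. Coding genes gave 40.1%, 38.7%, 34.3%, 54.9% and 40.7%. The share gained was 10.6% with 500 bp ends, and 9.30%, 6.92%, 5.19%, 17.1% and 18.2% under the other settings in that order. Coding genes gave 10.1%, 9.26%, 7.53%, 5.70%, 13.3% and 14.5%. The members' share gained thus lay below that of coding genes with absence within 5 kb and 10 kb, and above it under the others. H3K4me1 at acetylated ends at 0 µM was 36.4% within 500 bp, 88.5% within 2 kb and 44.9% with H3K4me1 scores of at least 5, and at 15 µM 29.5%, 85.7% and 40.7%, and 55.2% without LOC genes. The excess over coding ends was 20.2, -0.301 and 22.3 percentage points at 0 µM and 15.1, -3.65 and 21.5 at 15 µM, so its sign reversed at 2 kb. At 0 µM the interval at 2 kb covered both signs (-2.07 to 1.35). H3K4me1 lost was 6.52% with 500 bp ends, 1.90% with 2 kb ends, 1.12% and 0.374% with absence within 5 kb and 10 kb, and 17.7% with scores of at least 5. H3K4me1 gained was 1.19%, 0.967%, 0.414% and 15.8% from 2 kb ends on, and 4.78% without LOC genes. Leaving out LOC genes left 411 members. At ends that lost H3K27ac, H3K4me1 was at 37.4% and 32.8% within 500 bp, and at 41.9% and 44.8% with scores of at least 5. The CpG rule with over 50% GC, added after the first rule's values were seen, left the lost and gained shares of both classes inside their intervals. It moved the CpG-rich share of acetylated coding starts from 89.4% to 85.7% and the H3K4me1 share of CpG-poor coding starts at 15 µM from 63.0% to 58.1%, and it parted the intervals of lncRNA and coding CpG-poor starts at 0 µM. No paired analysis was possible because each mark and dose had 1 library. No replicate could be left out for the same reason. Read depth is unknown, so a missing summit can be a peak below the caller's threshold.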
